A study of Mus musculus with 35 samples.

Results

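The 9 genes described here encode secreted proteins of the senescence-associated secretome and 1 receptor: the cytokine Il6, the neutrophil-attracting chemokines Cxcl1 and Cxcl5, the chemokine Cxcl12, the monocyte-attracting chemokines Ccl2 and Ccl7, the matrix metalloproteinases Mmp3 and Mmp13, and Il1rl1, the receptor for interleukin-33. They were chosen by name, with earlier results of these data known. All 9 were present among the 21350 genes of the deposited expression table. Messenger RNA was measured by poly-A RNA sequencing in 35 mouse libraries of an Oct4 and Kdm2b reprogramming study, in which infected cells were kept in the reprogramming medium iCD1. The factor combinations are labelled ODR, OA and OB, and the labels do not expand these names.

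Cultures without BMP4 gave 2 libraries for each combination at day 1 and 3 for each at day 14, and at day 6 there were 2 for ODR, 3 for OA and 4 for OB. With BMP4 at 10 ng/ml, a bone morphogenetic protein, there were 1 ODR and 2 OB libraries at day 6. These 27 libraries in 11 groups entered the tests. Single day 9 libraries (ODDR and ODB, each alone or with BMP4), mouse embryonic fibroblasts (MEF) and mouse embryonic stem cells (mESC) are given as values only. All the factor groups share infection and the medium, so no group shows infection or medium on its own. The labels do not say whether replicates came from separate cultures or animals. The p-values then measure the spread between these libraries, which may be technical.

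Cells that stop dividing after damage, oncogene activity or the expression of reprogramming factors can secrete a mixture of cytokines, chemokines, growth factors and matrix-degrading enzymes. Transcription of many of these genes is driven by NF-kB and C/EBP beta downstream of interleukin-1 and Toll-like receptor signals, and by AP-1 at the metalloproteinase genes. In reprogramming cultures, interleukin-6 from senescent cells is known to act on neighbouring cells through gp130 and Stat3. Cxcl1 and Cxcl5 signal through Cxcr2, Cxcl12 through Cxcr4, and Ccl2 and Ccl7 through Ccr2. Mmp3, also called stromelysin, cleaves many matrix proteins, and Mmp13 is a collagenase.

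Most of the genes lie in clusters of related genes. In the GENCODE annotation of the mouse build GRCm38 (mm10), all 9 are on the plus strand. Cxcl5 (ENSMUSG00000029371, chr5:90759360-90761624) and Cxcl1 (ENSMUSG00000029380, chr5:90891241-90893115) are 129.6 kb apart in the CXC chemokine cluster, and Il6 (ENSMUSG00000025746, chr5:30013114-30019981) is elsewhere on that chromosome. Ccl2 (ENSMUSG00000035385, chr11:82035571-82037453) and Ccl7 (ENSMUSG00000035373, chr11:82045712-82047525) are 8.3 kb apart in the CC chemokine cluster. Mmp13 (ENSMUSG00000050578, chr9:7272514-7283331) and Mmp3 (ENSMUSG00000043613, chr9:7445822-7455975) are 162.5 kb apart in the metalloproteinase cluster. Il1rl1 (ENSMUSG00000026069, chr1:40429570-40465415) is among the interleukin-1 receptor genes, and Cxcl12 (ENSMUSG00000061353, chr6:117168535-117181367) stands apart from the other chemokines.

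The promoters below are shown because these genes are read through well-known binding motifs and because Cxcl1, Mmp3 and Mmp13 follow different courses in the data. Each is the 250 bases before the RefSeq start in GRCm38.p6, and 6 of the 9 genes were matched in the RefSeq promoter table. Capitals mark matches to 4 motifs searched on both strands: NF-kB, AP-1 (TGANTCA), C/EBP (TTGCNNAA) and the TATA box (TATAAA).
Il6, chr5:30012864-30013113, plus strand: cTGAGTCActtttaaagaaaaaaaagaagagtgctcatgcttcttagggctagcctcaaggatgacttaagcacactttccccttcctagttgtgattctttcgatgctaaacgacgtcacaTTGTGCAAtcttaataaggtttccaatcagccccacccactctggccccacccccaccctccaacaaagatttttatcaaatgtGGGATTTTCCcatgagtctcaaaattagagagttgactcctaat
Cxcl1, chr5:90890995-90891244, plus strand: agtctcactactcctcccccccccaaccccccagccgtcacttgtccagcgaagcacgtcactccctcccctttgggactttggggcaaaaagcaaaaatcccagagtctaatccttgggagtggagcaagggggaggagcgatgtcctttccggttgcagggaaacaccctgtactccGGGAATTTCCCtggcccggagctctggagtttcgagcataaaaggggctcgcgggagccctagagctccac
Mmp3, chr9:7445572-7445821, plus strand: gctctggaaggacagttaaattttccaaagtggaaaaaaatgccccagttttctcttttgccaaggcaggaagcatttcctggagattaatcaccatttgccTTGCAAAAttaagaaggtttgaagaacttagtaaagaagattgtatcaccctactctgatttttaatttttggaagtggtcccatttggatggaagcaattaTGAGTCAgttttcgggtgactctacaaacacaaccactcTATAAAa
Mmp13, chr9:7272264-7272513, plus strand: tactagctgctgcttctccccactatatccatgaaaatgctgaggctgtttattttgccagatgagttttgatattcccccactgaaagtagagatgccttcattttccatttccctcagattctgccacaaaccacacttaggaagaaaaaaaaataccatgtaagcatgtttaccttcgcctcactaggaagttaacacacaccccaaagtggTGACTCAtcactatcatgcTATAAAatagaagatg

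Counted back from the start, the Il6 promoter holds an AP-1 match at -249 to -243, a C/EBP match at -128 to -121 and an NF-kB match at -44 to -35. The Cxcl1 promoter holds a pair of overlapping NF-kB matches between -71 and -61. The Mmp3 promoter has a C/EBP match at -148 to -141, an AP-1 match at -46 to -40 and a match to the TATA box letters at -7 to -2. The Mmp13 promoter has an AP-1 match at -35 to -29 and a match to the TATA box letters at -16 to -11. Il1rl1 has a pair of RefSeq starts, of which the first carries a C/EBP match at -34 to -27, and no match was found before the second start or in the Cxcl12 window. Among 32851 promoters of this length, 7.25% hold an NF-kB match, 6.75% an AP-1 match, 9.56% a C/EBP match and 12.37% a TATA box match. A match describes letters only, and binding was not measured here.

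The values are deposited normalized tag counts per gene, whose sum ranged from 4255921 to 4398785 per library. Sequencing depth is unknown. In the tested libraries the levels of Kdm2b and Kdm2a went with the group labels with 1 exception, although the labels do not name the factors. Kdm2b was at 4220 to 18690 in OB libraries and 202 to 460 in ODR and OA libraries. Kdm2a was at the table's ceiling of 18690 in OA day 14 replicates 1 and 3 but at 721 in the library labelled OA day 14 replicate 2, whose closest library was a day 9 library with BMP4 (Pearson correlation over 14129 genes 0.9614, against 0.9034 with the other OA day 14 libraries). The tests of the 9 genes are therefore given with it (27 libraries, 13860 genes tested) and without it (26 libraries, 13826 genes). For other genes and lists the values are those over 27 libraries unless 26 are named. A further library was deposited identically at all 21350 genes as ODR day 6 replicate 3 and as ODR with BMP4 day 6 replicate 2, and was left out of both groups. Its correlation was 0.9736 with ODR day 6 and 0.9025 with ODR with BMP4. MEF and mESC carried the defining markers of their labels, with a summed fibroblast list of 80383 in MEF and a summed stem cell list of 24373 in mESC, against at most 1380 for stem cell genes elsewhere.

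**Figure D1:**
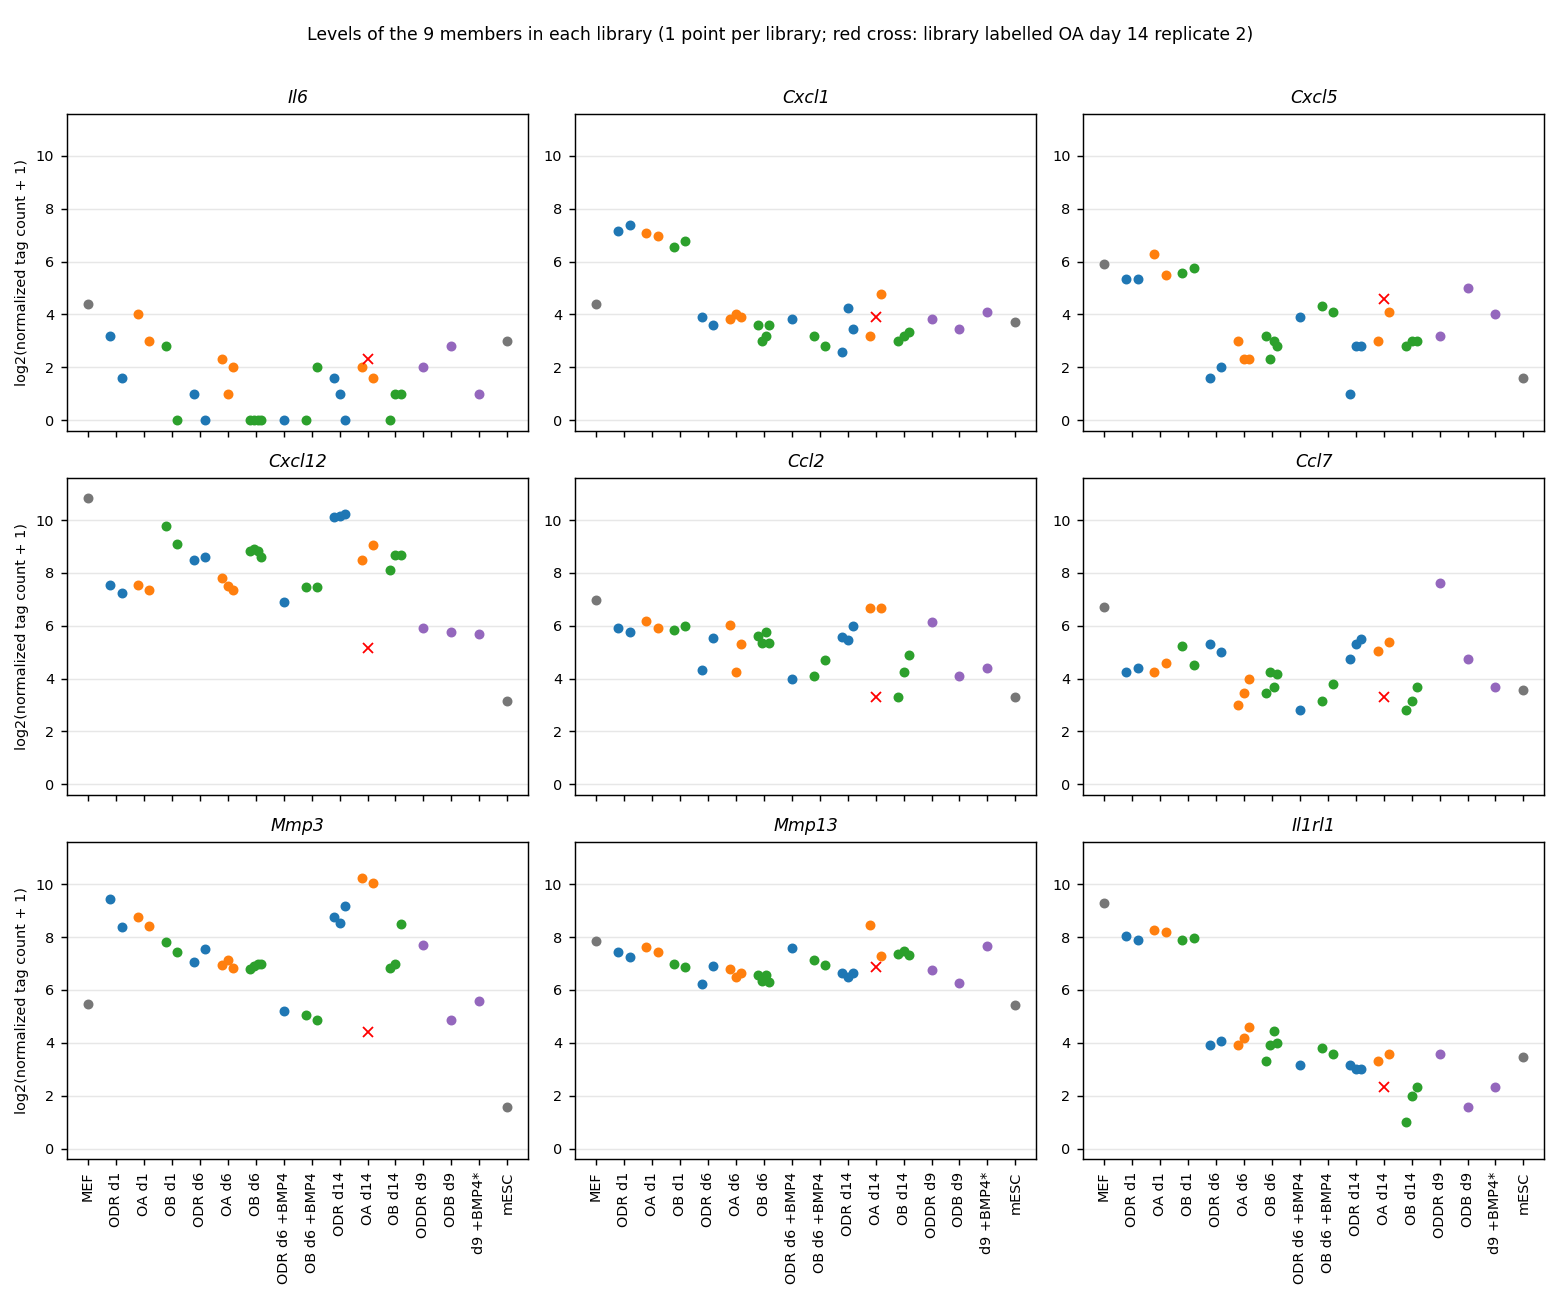
Expression of the 9 genes in each library, 1 panel per gene, on a log2(normalized value + 1) axis, with groups along the horizontal axis and 1 point per library. The red cross is the library labelled OA day 14 replicate 2, and the library shared by the day 6 labels is omitted. Cxcl1, Cxcl5 and Il1rl1 drop between day 1 and day 6 in each factor group, while Cxcl12 is higher in OB at day 1 and in ODR at day 14, and Ccl7 is lower in OB than in ODR at days 6 and 14.

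Between day 1 and day 6, the chemokines Cxcl1 and Cxcl5 and the receptor Il1rl1 fell in ODR, OA and OB alike, each by 2.83 or more on the log2 scale. Tests were made with limma on log2(value + 1), and a gene was called at an adjusted p under 0.05, adjusted by Benjamini-Hochberg over all genes tested. Fold changes on this scale understate the change of low genes. Only genes that reached 10 in 2 or more libraries were tested. Il6 did so in 1 library, so 8 of the 9 genes were tested. Of these, 3 were called lower and 0 higher in ODR, where 25.1% of all genes were called. In OA 4 were called lower and 0 higher (34.6% of all genes), and in OB 3 were lower and 0 higher (33.8% of all genes).

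Cxcl1, a ligand of Cxcr2, had day 1 values of 142 and 165 in ODR, 134 and 124 in OA, and 92 and 110 in OB. At day 6 its values were 14 and 11 in ODR, 13, 15 and 14 in OA, and 11, 7, 8 and 11 in OB. Every day 1 library was above every day 6 library, with a lowest day 1 value of 92 and a highest day 6 value of 15. Cxcl1 fell by 3.52 ± 0.43 (SE, log2) in ODR (adjusted p 1.38e-05), with a change of -3.12 ± 0.39 in OA (adjusted p 1.04e-05) and of -3.33 ± 0.37 in OB (adjusted p 2.64e-06). The library shared by the ODR day 6 labels, which was outside the test, had 36. At day 14 the 9 libraries ranged from 5 to 26 with a median of 9, so the day 1 level was not regained in any of them.

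Cxcl5, a second Cxcr2 ligand, had day 1 values of 40 and 40 in ODR, 77 and 44 in OA, and 46 and 53 in OB. At day 6 it was at 2 and 3 in ODR, 7, 4 and 4 in OA, and 8, 4, 7 and 6 in OB. The days did not overlap in any factor group. Cxcl5 fell by 3.57 ± 0.52 in ODR (adjusted p 8.27e-05), with -3.34 ± 0.47 in OA (adjusted p 3.66e-05) and -2.83 ± 0.45 in OB (adjusted p 0.000111).

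Il1rl1, which encodes the ST2 receptor, stood at 262 and 236 in ODR, 304 and 292 in OA, and 234 and 248 in OB at day 1. At day 6 it was at 14 and 16 in ODR, 14, 17 and 23 in OA, and 9, 14, 21 and 15 in OB. No day 6 library came within the day 1 range. Il1rl1 fell by 3.97 ± 0.40 in ODR (adjusted p 2.41e-06), with -4.0 ± 0.37 in OA (adjusted p 4.24e-07) and -4.0 ± 0.35 in OB (adjusted p 2.03e-07), the largest decreases among the 8 genes in each group. It went lower still by day 14, to a range of 1 to 11 over 9 libraries.

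Mmp13, the collagenase, fell in OA by 0.89 ± 0.30 (adjusted p 0.0268), from 197 and 171 to 109, 89 and 99. Its groups did not overlap there. In ODR the change was -0.76 ± 0.32 and was not called in the 27-library fit (adjusted p 0.0974), with 171 and 150 at day 1 and 74 and 120 at day 6. The OA call did not hold in every fit, and leaving out OA day 1 replicate 1 or 2, or OA day 6 replicate 2 or 3, reduced the OA count to the other 3 genes.

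Mmp3, Cxcl12, Ccl2 and Ccl7 were not called in any of the 3 day 1 to day 6 steps with 27 libraries. Mmp3 was at 172 to 700 (median 337.5, n = 6) at day 1 and at 109 to 185 (median 124, n = 9) at day 6. Ccl2 ranged from 54 to 71 (median 60) at day 1 and from 18 to 64 (median 40) at day 6. Ccl7 ranged from 18 to 37 (median 21) and then from 7 to 39 (median 15). Within the factor groups, Mmp3 was lower at day 6 without overlap in all 3, and Ccl2 in ODR and OB. Ccl7 also did not overlap between the days, and was higher at day 6 in ODR and lower in OA and OB. Cxcl12 was higher at day 6 in ODR and lower in OB without overlap, and overlapped in OA. How many of all genes lacked overlap was not counted. With so few libraries per group, a lack of overlap is a description only, here and elsewhere.

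Without the library labelled OA day 14 replicate 2, the estimates of this step kept their sizes and the spread over groups was smaller. In ODR 5 of the 8 genes were then called lower and 1 higher (30.8% of all genes), adding Mmp3 at -1.63 ± 0.42 (adjusted p 0.00659), Mmp13 (adjusted p 0.0381) and a rise of Cxcl12 by 1.14 ± 0.23 (adjusted p 0.00132). In OA 6 were lower and 0 higher (40.1% of all genes), adding Mmp3 at -1.63 ± 0.38 (adjusted p 0.00257) and Ccl7 at -0.93 ± 0.34 (adjusted p 0.038). In OB 5 were lower and 0 higher (39.0% of all genes), adding Cxcl12 at -0.64 ± 0.20 (adjusted p 0.0176) and Ccl7 at -0.99 ± 0.32 (adjusted p 0.0218). Cxcl12 therefore went in opposite directions in ODR and OB in these fits, from 186 and 152 to 356 and 388 in ODR, and from 878 and 546 to 449, 482, 452 and 392 in OB. The difference between these steps was not tested.

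Il6 was close to the bottom of the scale throughout. Its values were 8 and 2 in ODR, 15 and 7 in OA, and 6 and 0 in OB at day 1. At day 6 the 9 libraries without BMP4 ranged from 0 to 4 with a median of 0, and at day 14 from 0 to 4 with a median of 1. MEF had 20, the highest value of Il6 in the series. In a limma fit without the filter (18539 genes) Il6 was called in none of the 20 comparisons, and its lowest adjusted p was 0.0961, for a change of -1.73 ± 0.73 between day 1 and day 6 in OA. At an unadjusted p under 0.05 there were 4: OB against OA at days 1 and 6, and day 6 against day 1 in ODR and OA. Over 26 libraries Il6 was again not called, with a lowest adjusted p of 0.0956.

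These are bulk libraries, so fewer cells of a type and less RNA per cell cannot be told apart. A list of 13 macrophage and leukocyte markers present in the table (of 14 chosen) summed to 630 to 726 at day 1 and to 258 to 559 at day 6. The same list summed to 773 in mESC and to 473 in MEF. Its sum, here and below, therefore does not by itself show leukocytes. Of its 11 tested genes, 1 was lower in ODR, 3 lower and 1 higher in OA, and 2 lower in OB, beside 25.1%, 34.6% and 33.8% of all genes called in these steps. Over 26 libraries the counts were 1 lower and 1 higher, 5 lower and 1 higher, and 2 lower. The pan-leukocyte marker Ptprc ranged from 29 to 50 at day 1 and from 0 to 50 at day 6, and Csf1r from 23 to 37 and then from 3 to 11. A list of 10 osteoblast and chondrocyte markers summed to 707 to 1697 at day 1 and to 366 to 604 at day 6, with 5 lower and 2 higher in ODR, 5 lower and 1 higher in OA, and 6 lower and 1 higher in OB of 8 tested. Mast cell and lymphocyte markers, of interest because mast cells express ST2, summed to 64 to 144 at day 1, and at day 6 to 37 to 42 in ODR, 38 to 64 in OA and 34 to 38 in OB. The mast cell genes Mcpt4 and Tpsb2 were at 0 in every one of these libraries, and 2 of the 14 genes were tested. Of the other mast cell genes, Ms4a2 was detected at day 1 in ODR and OA, and Cpa3 at day 1 in OB. Both were at 0 in every tested day 6 library without BMP4. The part of these cells in the fall of the 3 genes was not tested.

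Of 8 tested genes within 4 places of Cxcl1 or Cxcl5 in the table, 5 fell and 1 rose in each of ODR, OA and OB, in both fits. The others were Alb, which rose, and Cxcl15 and Epgn, which were not called. Cxcl2, another neutrophil-attracting chemokine, fell by 2.50 ± 0.65 in ODR (adjusted p 0.00867), with -2.66 ± 0.59 in OA (adjusted p 0.00207) and -3.17 ± 0.56 in OB (adjusted p 0.000311). Ppbp, the platelet basic protein gene, had 15 and 28 in ODR, 13 and 32 in OA, and 4 and 10 in OB at day 1 and was listed at 0 in every day 6 and day 14 library without BMP4. Rassf6 and Mthfd2l also fell. Ereg, which encodes the growth factor epiregulin, fell, with changes of -3.14 in ODR, -2.80 in OA and -2.40 in OB (adjusted p 0.00118, 0.000899 and 0.00213). Around Il1rl1, 2 of 4 tested neighbours fell in each group, and over 26 libraries 3, with Slc9a2 added. The interleukin-36 receptor gene Il1rl2 fell in ODR, OA and OB, with -3.0 ± 0.40, -3.23 ± 0.36 and -3.02 ± 0.35 (adjusted p 3.61e-05, 3.59e-06 and 3.81e-06). Il18rap, a subunit of the interleukin-18 receptor, fell as well (-2.23, -2.93 and -2.24), whereas Il1r1, the interleukin-1 receptor, was not called in these steps.

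The 3 tested neighbours of Ccl2 and Ccl7, Ccl8, Ccl12 and the ion channel gene Asic2, rose in ODR and OA, and Ccl8 and Asic2 rose in OB. Ccl8, a monocyte chemoattractant gene, had a mean of 35 ± 9.90 (SD, n = 2) in ODR, 20.5 ± 16.3 (n = 2) in OA and 30 ± 28.3 (n = 2) in OB at day 1. At day 6 the means were 2161 ± 536 (n = 2), 709 ± 74.2 (n = 3) and 707.5 ± 251 (n = 4). Ccl8 rose by 5.91 ± 0.71 in ODR (adjusted p 1.29e-05), by 5.28 ± 0.65 in OA (adjusted p 8.62e-06) and by 4.84 ± 0.62 in OB (adjusted p 1.25e-05), while its neighbours Ccl2 and Ccl7 were not called in this step. MEF and mESC each had a Ccl8 value of 1. Ccl12 was listed at 0 in both ODR day 1 libraries and had a mean of 5.5 at day 6 (adjusted p 0.0223), and in OA it rose by 2.35 (adjusted p 0.0211). In OB its change of 1.56 was not called over 27 libraries and was called over 26 (adjusted p 0.0404).

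Of 7 tested neighbours of Mmp3 and Mmp13, 2 rose and 1 fell in ODR, 3 rose and 1 fell in OA, and 3 rose and 0 fell in OB. Mmp1b, a collagenase-like gene, had a mean of 9 at day 1 in ODR and in OA, was listed at 0 in every day 6 library of both, and was not called in OB. Mmp12, the macrophage elastase gene, rose by 0.71 in OA (adjusted p 0.0124) and by 0.71 in OB (adjusted p 0.00874). Pdgfd and Dync2h1 rose in each group, and Mmp10, Mmp8 and Dcun1d5 were not called. Around Cxcl12, Rassf4 and Zfp422 rose in each group, Zfp239 fell in ODR and Zfp637 in OA, and Hnrnpf was not called. Around Il6, Hadha and Dnajb6 fell in each group and Hadhb in OA, and Tyms and Ube3c were not called. The shares of all genes called in these steps were 25.1% in ODR, 34.6% in OA and 33.8% in OB.

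**Figure D2:**
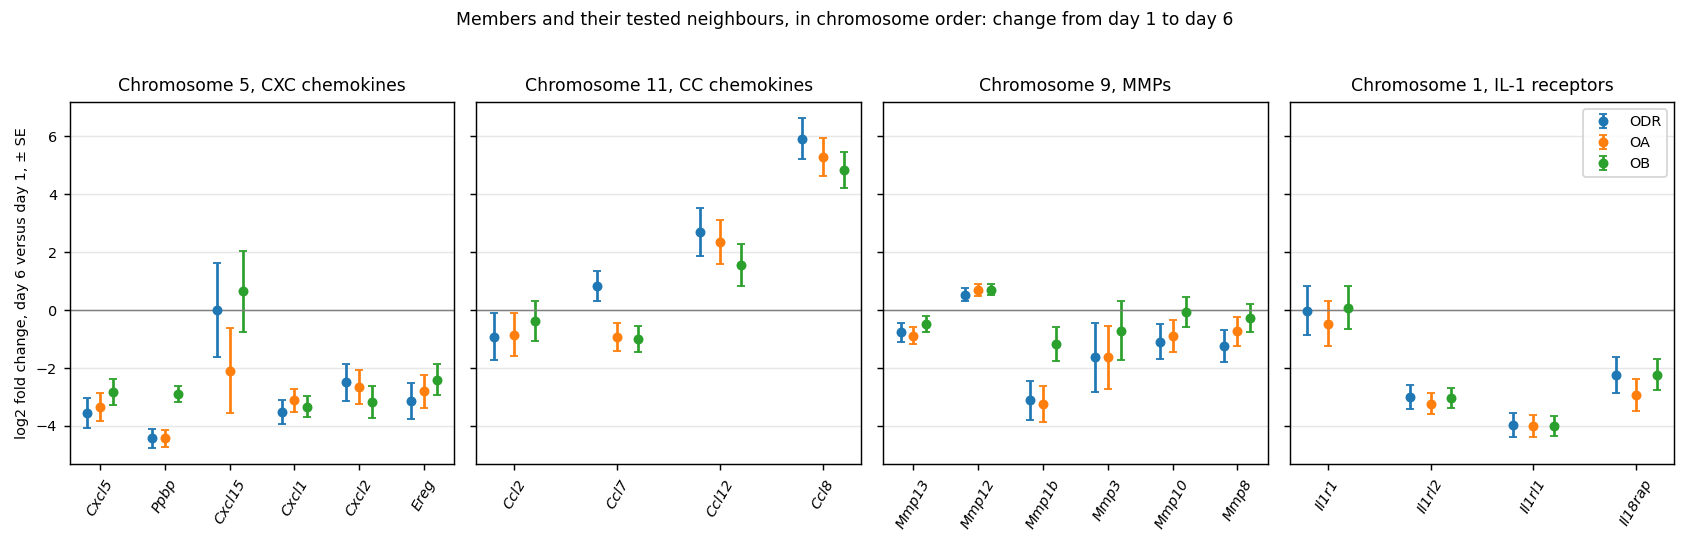
Change from day 1 to day 6 (log2, day 6 minus day 1) with its SE for the studied genes and some of their tested neighbours in 4 chromosome clusters. Colours mark ODR, OA and OB. The tested neighbours Alb, Asic2, Pdgfd and Dync2h1, which rose in each factor group, are not drawn. Rassf6, Mthfd2l, Epgn, Dcun1d5 and Slc9a2 are also not drawn. Cxcl5, Ppbp, Cxcl1, Cxcl2 and Ereg lie below 0 in each factor group, whereas Ccl8 lies between 4.84 and 5.91.

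The factor groups were next compared at the same day. At day 1 limma called none of the 8 genes between OB and ODR (0.880% of all genes called), OA and ODR (0.0649%) or OB and OA (1.40%). At an unadjusted p under 0.05 there were 1, 0 and 1, in both cases Cxcl12. Cxcl12, which retains stem cells in the bone marrow through Cxcr4, was at 878 and 546 in OB, above 186 and 152 in ODR and 187 and 161 in OA. Both OB libraries were higher than all 4 others, with a difference of 2.04 ± 0.74 from ODR (adjusted p 0.308) and 1.99 ± 0.74 from OA (adjusted p 0.257). In the 26-library fit these differences were 2.04 ± 0.23 (adjusted p 0.000169, 1.89% of all genes called) and 1.99 ± 0.23 (adjusted p 0.000141, 2.95% of all genes called), and Cxcl12 was the 1 gene of the 8 called in each. With the library labelled OA day 14 replicate 2 in the fit, neither difference was called.

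At day 6 none of the 8 genes was called by limma between OB and ODR (10.5% of all genes), OA and ODR (2.22%) or OB and OA (7.28%), with 2, 1 and 1 at an unadjusted p under 0.05. Ccl7 was at 39 and 31 in ODR, above 7, 10 and 15 in OA and 10, 18, 12 and 17 in OB, with no overlap. The differences from ODR were -1.67 ± 0.47 in OA (adjusted p 0.0772) and -1.27 ± 0.45 in OB (adjusted p 0.0825). In the 26-library fit they passed, at adjusted p 0.00895 with 4.67% of all genes called and at adjusted p 0.0125 with 15.3% of all genes called. The shared library, outside the fit, had a Ccl7 value of 23. Cxcl12 at day 6 was again higher in OB than in OA, by 1.24, with an adjusted p of 0.215 over 27 libraries and of 0.000235 over 26 (11.7% of all genes called). In the same fit Cxcl12 was lower in OA than in ODR by 0.98 ± 0.21 (adjusted p 0.013).

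From day 6 to day 14, counts are given within each factor group first, and the test of the difference between groups follows at the interactions. ODR had 0 of the 8 genes called (3.95% of all genes) and 2 at an unadjusted p under 0.05. OA had 1 higher and 1 lower (8.14% of all genes), and OB had 1 higher and 1 lower (55.0% of all genes). Without the library labelled OA day 14 replicate 2, ODR had 2 higher and 0 lower (7.93% of all genes), OA 4 higher and 0 lower (7.66%), and OB 1 higher and 2 lower (59.0%). Of the 11 tested macrophage and leukocyte markers, 5 were lower and 0 higher in ODR, 5 lower and 0 higher in OA, and 9 lower and 0 higher in OB over this interval, and their part in these changes was not tested.

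In OB, Mmp13 rose from 94, 80, 94 and 78 to 162, 176 and 160, by 0.94 ± 0.25 (adjusted p 0.00374). Il1rl1 fell from 9, 14, 21 and 15 to 1, 3 and 4, by 2.15 ± 0.31 (adjusted p 1.38e-05). Neither gene overlapped between these days in OB. Ccl2 was at 48, 40, 54 and 40 and then at 9, 18 and 29, a change of -1.37 ± 0.62 (adjusted p 0.0693) that was called over 26 libraries (±0.38, adjusted p 0.00517).

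In ODR, Cxcl12 was at 356 and 388 at day 6 and at 1122, 1147 and 1204 at day 14, and Mmp3 was at 132 and 185 and then at 428, 374 and 579. Both genes were higher in all 3 day 14 libraries. Neither was called over 27 libraries, and over 26 Cxcl12 rose by 1.64 ± 0.21 (adjusted p 0.000166) and Mmp3 by 1.53 ± 0.38 (adjusted p 0.0188).

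In OA, Mmp3 was at 121, 140 and 112 at day 6 and at 1220, 20 and 1058 at day 14. The middle value is the library labelled replicate 2, which was the lowest of the 9 day 14 libraries for Mmp3 and also for Cxcl12 (35, against 362 and 534). Without it the OA means were 1139 ± 115 for Mmp3 and 448 ± 122 for Cxcl12 (SD, n = 2). Over 26 libraries Mmp3 rose by 3.19 ± 0.38 (adjusted p 0.000141), Ccl7 by 1.73 ± 0.34 (adjusted p 0.00461), Cxcl12 by 1.23 ± 0.21 (adjusted p 0.00191) and Mmp13 by 1.24 ± 0.24 (adjusted p 0.0044). Over 27 libraries the calls in OA were Mmp13, higher by 0.90 ± 0.26 (adjusted p 0.0427), and Il1rl1, lower by 1.14 ± 0.33 (adjusted p 0.0395). The Il1rl1 call was absent over 26 libraries, and both calls were absent when the test used no filter.

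At day 14, OB had lower Cxcl12, Ccl7 and Il1rl1 and higher Mmp13 than ODR. The count was 1 higher and 3 lower of 8, in a comparison where 54.7% of all genes were called. The median difference of the 8 genes was -1.33 on the log2 scale, against 0.01 over all genes. Over 26 libraries it was 1 higher and 5 lower, with 59.1% of all genes called, so Ccl2 and Mmp3 joined the lower genes. Over 27 libraries the share of the 8 genes called is close to the background of a comparison that called most of the genes tested. Over 26 libraries it is above that background, in a set of only 8 genes. Over all genes and 27 libraries, 3882 were higher and 3701 lower.

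Among the chemokines, Cxcl12 was at 274, 408 and 406 in OB and at 1122, 1147 and 1204 in ODR at day 14. The groups did not overlap, and OB was lower by 1.69 ± 0.60 (adjusted p 0.0231), or ±0.19 over 26 libraries (adjusted p 9.64e-07). Ccl7 was at 6, 8 and 12 in OB and at 26, 39 and 44 in ODR, lower by 1.96 ± 0.42 (adjusted p 0.000693). Ccl2 was at 9, 18 and 29 in OB and at 47, 43 and 62 in ODR. The Ccl2 libraries also did not overlap, but its difference of -1.52 ± 0.66 was not called over 27 libraries (adjusted p 0.0607), and was called over 26 (adjusted p 0.004).

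Il1rl1 was at 1, 3 and 4 in OB and at 8, 7 and 7 in ODR, lower by 1.28 ± 0.33 (adjusted p 0.00294), although both groups were far under their day 1 values. All these day 14 values are under the filter value of 10, which Il1rl1 reached in other libraries. Mmp3 was at 112, 127 and 362 in OB and at 428, 374 and 579 in ODR. Its difference of -1.38 was called over 26 libraries (±0.34, adjusted p 0.00202) and not over 27. The second protease went the other way: Mmp13 was at 162, 176 and 160 in OB, above 98, 90 and 100 in ODR, higher by 0.78 ± 0.26 (adjusted p 0.0178). Cxcl1, at 7, 8 and 9 in OB and 5, 18 and 10 in ODR, and Cxcl5, at 6, 7 and 7 in OB and 1, 6 and 6 in ODR, overlapped and were not called. The 4 calls over 27 libraries became 2, both lower, without ODR day 14 replicate 2.

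OA differed from ODR in 3 of the 8 genes at day 14, with 2 higher and 1 lower, against 5.35% of all genes called. Cxcl5 was at 7, 23 and 16 in OA, above 1, 6 and 6 in ODR, higher by 1.69 ± 0.42 (adjusted p 0.0253). Mmp13 was at 352, 116 and 156 in OA, above 98, 90 and 100 in ODR, higher by 0.94 ± 0.26 (adjusted p 0.0444). Cxcl12 was lower by 2.60 ± 0.60 (adjusted p 0.0157), with 362, 35 and 534 in OA. None of the 3 genes overlapped between these groups. Without the library labelled OA day 14 replicate 2 there were 1 higher and 1 lower (5.57% of all genes), with Mmp13 higher by 1.28 ± 0.24 (adjusted p 0.00424) and Cxcl12 lower by 1.39 ± 0.21 (adjusted p 0.000937). Cxcl5 was not called there, at 1.34 ± 0.45 (adjusted p 0.0931), and Mmp3 was just outside the threshold, at 1.33 ± 0.38 (adjusted p 0.0501). With ODR day 14 replicate 1 or replicate 2 left out of the 27-library fit, 1 of the 3 genes was called, and with the compared groups fitted alone none was.

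Against OA, OB had 0 higher and 2 lower at day 14, with 51.7% of all genes called. Ccl7, at 6, 8 and 12 in OB and 32, 9 and 41 in OA, was lower by 1.36 ± 0.42 (adjusted p 0.0117). Il1rl1, at 1, 3 and 4 in OB and 9, 4 and 11 in OA, was lower by 1.30 ± 0.33 (adjusted p 0.00288). The libraries overlapped for both genes through the OA library labelled replicate 2. Without that library 4 genes were lower and 0 higher (52.0% of all genes), and none of the 4 overlapped: Mmp3 at -2.71 ± 0.38 (adjusted p 1.97e-05), Ccl2 at -2.51 ± 0.46 (adjusted p 0.000219), Ccl7 at -1.99 ± 0.34 (adjusted p 0.000125) and Il1rl1 at -1.68 ± 0.32 (adjusted p 0.000295). OB against ODR and OB against OA share the OB libraries, so their values are not independent of each other.

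**Figure D3:**
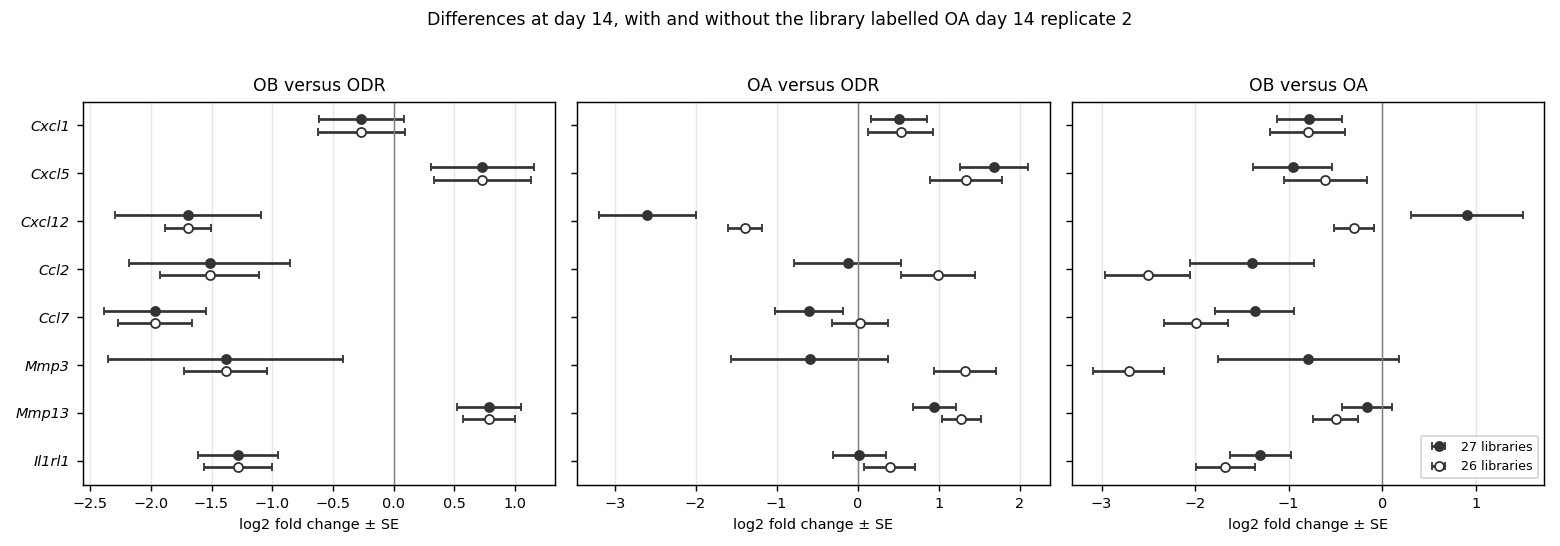
Differences at day 14 (log2, with SE) of the 8 tested genes in OB against ODR, OA against ODR and OB against OA, with filled points from 27 libraries and open points from 26, without the library labelled OA day 14 replicate 2. Mmp3 in OB against OA is among the genes that move most between the fits, reaching -2.71 in the 26-library fit, while Ccl7 and Il1rl1 are below 0 in both fits of both OB comparisons.

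Whether OB changed differently from the others between day 6 and day 14 was tested as an interaction. Against ODR, 0 of the 8 genes were called (35.4% of all genes), with 4 at an unadjusted p under 0.05. Over 26 libraries 1 was higher and 3 lower (41.4% of all genes): Cxcl12 at -1.95 ± 0.28 (adjusted p 5.44e-05), Ccl2 at -2.10 ± 0.59 (adjusted p 0.0092), Il1rl1 at -1.21 ± 0.41 (adjusted p 0.0264) and Mmp13 at 0.91 ± 0.32 (adjusted p 0.0283). Against OA, 0 were higher and 1 lower (32.8% of all genes), with Ccl7 at -1.77 ± 0.58 (adjusted p 0.0255). Over 26 libraries 0 were higher and 5 lower (35.7% of all genes): Ccl2 at -2.84 ± 0.59, Mmp3 at -2.66 ± 0.49, Ccl7 at -2.40 ± 0.44, Cxcl12 at -1.54 ± 0.28 and Il1rl1 at -1.38 ± 0.41 (adjusted p 0.00168, 0.000738, 0.000703, 0.000588 and 0.0153).

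Other genes of the secretome were set beside these at day 14, where 54.7% of all genes were called between OB and ODR. Of 14 other secreted cytokines and chemokines tested, 1 was higher in OB and 6 were lower. Mif, the macrophage migration inhibitory factor, rose from a mean of 662 in ODR to 2145 in OB (1.69 ± 0.10, adjusted p 1.29e-09). Cx3cl1, or fractalkine, was at 95.3 in OB and 909 in ODR (-3.73 ± 0.70, adjusted p 0.000199), Ccl8 was lower by 3.49 ± 0.58 (adjusted p 5.91e-05), and Lif, a cytokine of the gp130 family, was at 4 and 22 (-2.26 ± 0.43, adjusted p 0.000255). Of 20 other proteases and their inhibitors, 2 were higher and 12 lower. Mmp11 was higher, at 355 and 84.3 (2.01 ± 0.20, adjusted p 2.45e-07), as was Mmp9, a gelatinase (adjusted p 0.0389). The secreted metalloproteinase Adamts1 was lower, at 909 and 3979 (-2.22 ± 0.29, adjusted p 5.4e-06), as were Ctsb (adjusted p 0.00014) and Mmp14 (adjusted p 8.55e-05).

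Of 28 other secreted growth factors and binding proteins, 3 were higher in OB and 16 lower. The angiogenic factor Vegfa was higher, at 976 and 287, and Tnfrsf11b, the decoy receptor osteoprotegerin, was lower, at 411 and 1954 (-2.27 ± 0.19, adjusted p 4.39e-08). Receptors and partners of the 9 genes had 1 higher and 8 lower of 15 tested. Cxcr4, the receptor of Cxcl12, was the higher gene (60 and 27, 1.14 ± 0.37, adjusted p 0.0148). Among the lower ones were Timp1, an inhibitor of metalloproteinases (314 and 1367, -2.18 ± 0.21, adjusted p 1.34e-07), Il1rap, the co-receptor of Il1rl1 (138 and 409, -1.56 ± 0.26, adjusted p 5.67e-05), and Il6st, which encodes gp130 (582 and 1056, -0.86 ± 0.13, adjusted p 2.51e-05).

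Of 21 NF-kB and C/EBP regulators, 0 were higher in OB and 9 lower. These included the NF-kB subunits Rela (298 and 658, -1.14 ± 0.10, adjusted p 5.88e-08) and Relb (53.7 and 167, -1.61 ± 0.15, adjusted p 1.21e-07) and the cytokine mRNA nuclease Zc3h12a (8 and 40, adjusted p 4.46e-07). Interleukin-1 and Toll-like receptor genes had 2 higher and 10 lower of 16, the lower ones including the double-stranded RNA sensor Tlr3 (21.7 and 84.7, adjusted p 8.71e-08) and the adaptor Myd88 (50.3 and 122, adjusted p 2.47e-05). Genes of interleukin-6 and Stat3 signalling had 2 higher and 8 lower of 15. Stat3 was at 1003 in OB and 1779 in ODR (-0.83 ± 0.12, adjusted p 1.12e-05), and the higher genes were the kinase Pim1 and Myc.

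The list of senescent state genes had 6 higher and 5 lower of 13. It holds genes that are lost in senescence beside others, so these counts do not show whether the genes agree. Lmnb1, the nuclear lamin that is lost in senescence, was at 1639 in OB and 340 in ODR (2.26 ± 0.22, adjusted p 1.87e-07), and Hmgb2 was at 2361 and 331 (2.82 ± 0.24, adjusted p 5.88e-08). Cdkn1a, the p21 cell cycle inhibitor, was lower in OB, at 751 and 1299 (-0.81 ± 0.12, adjusted p 1.79e-05), and so was the lysosomal membrane gene Gpnmb, at 902 and 5826 (-2.95 ± 0.33, adjusted p 8.35e-07). Over 26 libraries these OB against ODR counts were 1 higher and 7 lower (other cytokines), 3 and 12 (proteases), 3 and 17 (growth factors), 1 and 8 (receptors), 0 and 9 (NF-kB and C/EBP), 2 and 10 (interleukin-1 and Toll-like receptors), 2 and 9 (interleukin-6 and Stat3) and 6 and 5 (senescent state).

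In OA against ODR, where 5.35% of all genes were called, the 8 lists in that order had 0 higher and 0 lower, 0 and 1, 2 and 0, 0 and 1, 0 and 0, 1 and 1, 0 and 0, and 1 and 0. Over 26 libraries they had 0 and 0, 1 and 1, 2 and 1, 0 and 1, 0 and 0, 1 and 0, 0 and 0, and 0 and 0. In OB against OA, where 51.7% of all genes were called, they had 1 higher and 7 lower, 2 and 7, 2 and 16, 1 and 6, 0 and 8, 1 and 10, 2 and 9, and 6 and 7. Over 26 libraries they had 1 and 7, 1 and 10, 2 and 17, 1 and 8, 0 and 10, 1 and 9, 2 and 10, and 6 and 5. Apart from the senescent state list, the OB lists thus had more lower than higher genes against either group in both fits. All these lists were chosen with earlier results of these data known, so the counts do not test a direction. The senescent state list had 6 higher and 5 lower against ODR, and against OA 6 and 7, or 6 and 5 over 26 libraries. It mixes genes lost in senescence with others. The protease list likewise holds inhibitors, and the receptor list holds the inhibitor Timp1. List counts therefore do not show a common direction of activity. Over all genes and 27 libraries, 3882 were higher and 3701 lower in OB against ODR, and 3675 and 3489 against OA. A list of 15 fibroblast genes had 3 higher and 4 lower in OB against ODR, and 4 higher and 8 lower over 26 libraries. In OA against ODR it had 1 higher and 1 lower, and 6 higher and 0 lower over 26 libraries, and in OB against OA 2 higher and 4 lower, and 1 higher and 9 lower. Its summed level ran from 26969 to 34220 in OB, from 33263 to 44791 in ODR and from 20183 to 77035 in OA at day 14. Macrophage and leukocyte markers summed to 27 to 51 in OB, 47 to 94 in ODR and 57 to 315 in OA. The OA ranges of both lists include the library labelled OA day 14 replicate 2. Tyrobp, Cd52 and Fcer1g were at 0 in all 3 OB libraries, Cd52 also in all 3 OA libraries, and Aif1 in all 3 ODR libraries. The part of either list in the day 14 differences was not tested.

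BMP4 was compared with no BMP4 at day 6. In OB, Cxcl5 was higher with BMP4, at 19 and 16 against 8, 4, 7 and 6, by 1.38 ± 0.45 (adjusted p 0.0248). The groups did not overlap. This was 1 higher and 0 lower of the 8 genes, with 32.5% of all genes called, and no gene was called when OB day 6 replicate 2 or either BMP4 library was left out. In ODR, Cxcl5 was at 14 in the BMP4 library against 2 and 3, higher by 2.11 ± 0.63 (adjusted p 0.0376), and Ccl7 was at 6 against 39 and 31, lower by 2.35 ± 0.63 (adjusted p 0.022). That was 1 higher and 1 lower, with 11.5% of all genes called. The ODR arm with BMP4 held 1 library, whose spread was taken to be that of the other groups. With the shared library kept under both labels or under the BMP4 label, or with either ODR day 6 library left out, 0 of the 8 genes were called.

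Cxcl12 and Mmp3 were lower with BMP4 in every library. Cxcl12 was at 174 and 178 against 449, 482, 452 and 392 in OB, and at 118 against 356 and 388 in ODR. Mmp3 was at 32 and 28 against 109, 119, 127 and 124 in OB, and at 36 against 132 and 185 in ODR. No libraries overlapped for either gene. Over 27 libraries neither was called in OB, at -1.33 ± 0.64 for Cxcl12 (adjusted p 0.123) and -1.96 ± 1.03 for Mmp3 (adjusted p 0.156).

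Without the library labelled OA day 14 replicate 2, the OB count with BMP4 was 1 higher and 3 lower (37.3% of all genes): Cxcl12 lower by 1.33 ± 0.20 (adjusted p 5.78e-05), Mmp3 by 1.96 ± 0.36 (adjusted p 0.000349) and Ccl2 by 1.13 ± 0.43 (adjusted p 0.0483). In ODR it was 2 higher and 3 lower (17.8% of all genes): Mmp13 joined Cxcl5 (1.03 ± 0.32, adjusted p 0.0345), and Cxcl12 (-1.65 ± 0.29, adjusted p 0.000527) and Mmp3 (-2.09 ± 0.51, adjusted p 0.00786) joined Ccl7. Mmp13 was at 194 against 74 and 120 in ODR and at 138 and 122 against 94, 80, 94 and 78 in OB, so its tested BMP4 libraries were above the tested others of their factor group. The shared library, which also carries an ODR with BMP4 label, had 72 for Mmp13, 6 for Cxcl5, 348 for Cxcl12 and 100 for Mmp3. Between OB and ODR, a difference in the response to BMP4 was called by limma for 0 of the 8 genes (1.26% of all genes) in both fits. At an unadjusted p under 0.05 there was 1 over 27 libraries, Ccl7 at 1.95 ± 0.77 with an adjusted p of 0.322.

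**Figure D4:**
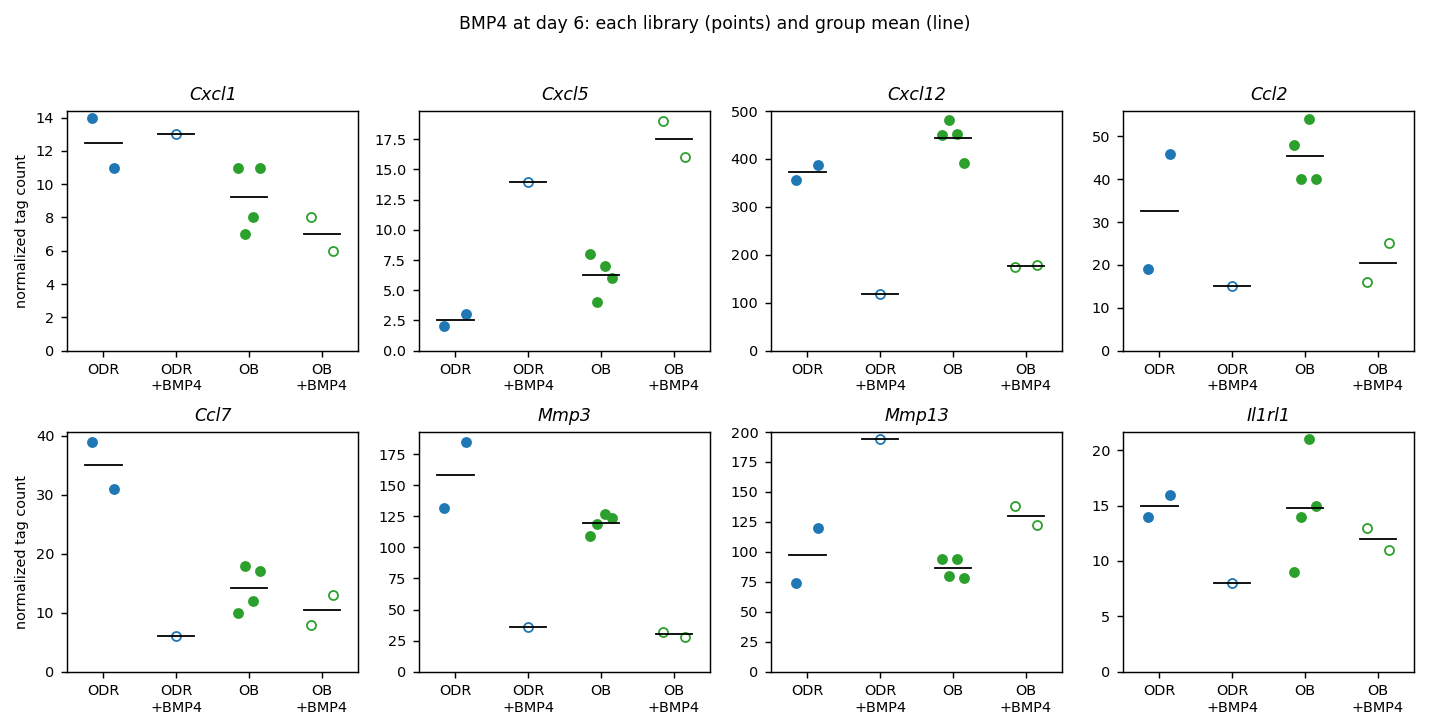
Normalized values at day 6 of the 8 tested genes in ODR, ODR with BMP4, OB and OB with BMP4, on a linear axis that starts at 0, with 1 point per library and a bar at the group mean. Cxcl5 is at 14 to 19 in the 3 BMP4 libraries and at 2 to 8 in the others, and Mmp3 is at 28 to 36 with BMP4 and at 109 to 185 without.

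Of the other genes, Ccl8 was lower with BMP4 in OB (166.5 against 707.5, -2.08 ± 0.62, adjusted p 0.0149), and the chemokine Cxcl14 was higher (2052 against 42.5, 5.64 ± 0.58, adjusted p 2.33e-06). With 32.5% of all genes called, other secreted cytokines had 1 higher and 4 lower of 14, proteases and inhibitors 1 and 5 of 20, growth factors and binding proteins 7 and 6 of 28, and receptors and partners 2 and 3 of 15. The NF-kB and C/EBP list had 1 higher and 4 lower of 21, interleukin-1 and Toll-like receptor genes 1 and 3 of 16, interleukin-6 and Stat3 genes 2 and 3 of 15, and senescent state genes 1 and 2 of 13. Over 26 libraries, with 37.3% of all genes called, the 8 lists had, in the order just given, 1 higher and 6 lower, 1 and 9, 8 and 10, 2 and 5, 1 and 5, 2 and 4, 2 and 3, and 1 and 2. Timp3, an inhibitor of metalloproteinases, was at 3256 with BMP4 and 608.5 without in OB (2.42 ± 0.33, adjusted p 3.13e-05), Ackr3, the scavenger receptor of Cxcl12, at 325 and 118.5 (adjusted p 0.000529), and Nfkbia, the NF-kB inhibitor, at 242.5 and 109.5 (adjusted p 0.000151). The fibroblast list summed to 18525 to 19731 in OB with BMP4 and to 28606 in ODR with BMP4, against 40360 to 58709 at day 6 without, with 10 of its 15 genes lower and 3 higher in OB, Col3a1 among the lower (1864 against 14002, adjusted p 0.00106). Macrophage and leukocyte markers summed to 567 in ODR with BMP4 and 648 to 667 in OB with BMP4, against 258 to 559 without. Of the 11 tested, 1 was higher and 1 lower in OB, with a median change of -0.18, and 0 were higher and 1 lower in ODR. The mast cell and lymphocyte list summed to 386 to 447 in OB with BMP4, against 34 to 38 without. In ODR it summed to 192 with BMP4, against 37 to 42 without. It had 2 tested genes, both higher in OB, with a median change of 4.37 in OB and 2.85 in ODR. In OB with BMP4, 2 of its 14 genes reached 10, and 10, with Cpa3, Mcpt4 and Tpsb2 among them, were at 0 in both libraries. The part of these lists in the lower Cxcl12 and Mmp3 and the higher Cxcl5 was not tested.

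The order of the groups by mean level differed from gene to gene. MEF came first for Cxcl12 (1848), Ccl2 (126), Mmp13 (228, inside the OA day 14 range of 116 to 352) and Il1rl1 (618), and mESC last for Cxcl12 (8), Ccl2 (9), Mmp3 (2), Mmp13 (42) and Cxcl5 (2). Cxcl1 was highest in the day 1 groups, which did not overlap each other (142 to 165 in ODR, 124 to 134 in OA, 92 to 110 in OB), and lowest in OB with BMP4 (6 and 8). MEF followed with a Cxcl1 value of 20, inside the range of OA at day 14. For Il1rl1, MEF was followed by the day 1 groups at 234 to 304, and every other group was at 23 or less. The day 6 groups overlapped in Il1rl1, and so did ODR and OA at day 14.

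The day 9 libraries have no replicates. Ccl7 was at 194 in the ODDR library without BMP4, above every other library of the series, of which MEF was next at 105, and at 26 in ODB. Mmp3 was at 206 in ODDR and 28 in ODB, Ccl2 at 70 and 16, and Cxcl5 at 8 and 31. Cxcl12 was at 60 and 54. With BMP4 the deposited values were identical under both labels and gave Cxcl5 at 15, Cxcl12 at 50, Mmp3 at 47 and Mmp13 at 201. Kdm2b in that library was at 239, against 18690 in ODB without BMP4.

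As a description over the 27 libraries, which share groups and days, the pair with the highest correlation of log2 values was Cxcl1 and Il1rl1 (Pearson r 0.911), followed by Cxcl1 and Cxcl5 (0.813) and Ccl2 and Mmp3 (0.754). The cluster neighbours Ccl2 and Ccl7 had 0.624, and Mmp3 and Mmp13, which also lie close together, had 0.32. The lowest was Cxcl5 with Cxcl12, at -0.356. Over 26 libraries the first and second pairs were the same (0.92 and 0.831), Cxcl5 and Il1rl1 were next (0.776), Ccl2 and Mmp3 had 0.703, and the lowest was Cxcl12 with Mmp13 (-0.346). Over the 27 libraries the genes most alike to Il1rl1 were Rin1 (0.969), Tpp2 (0.968) and Ccnyl1 (0.966), and to Cxcl1 they were Abcc1 (0.955), Lce1h (0.95) and Peak1 (0.938). Mmp3 was most alike to Eva1b (0.892) and to the matrix genes Dcn (0.883) and Col1a1 (0.862). Ccl2 was most alike to Sec24d (0.882), Matn2 (0.857) and Pdlim2 (0.839), and Cxcl5 to Igfbp7 (0.923), Megf10 (0.90) and Atp1b1 (0.893). The values were lower for Cxcl12, with Ubash3b at 0.906 but Kctd12 at 0.825 and Klf14 at 0.811, for Ccl7, with Svep1 (0.813), Eng (0.805) and Sh3rf3 (0.799), and for Mmp13, with Serpinf1 (0.773), Maml1 (0.739) and Atp2a2 (0.736). Over 26 libraries 15 of these 24 genes remained among the 3 most alike, Cgref1 (0.972) came first for Il1rl1 and Actr3 (0.943) first for Cxcl5.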

How the data were processed

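Messenger RNA was measured in 35 mouse libraries. Per the submitters' processing notes, bcl2fastq, Bowtie2 2.2.5, RSEM and mm10 were used. The authors deposited a normalized tag count score per gene, and the sources used here do not state the normalization. It is not a count, so depth is unknown and no count test was run. Values were taken as log2(value + 1) for genes at 10 or more in at least 2 of 27 libraries (13860 of 21350 genes) and fitted with limma 3.58.1 in R 4.3.3, as 1 model of 11 groups with 16 residual degrees of freedom. The 20 comparisons, 3 of them interactions, used two-sided moderated tests with Benjamini-Hochberg adjustment over all genes, called under 0.05. The script was tested on simulated data.

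The 9 genes and all lists were chosen with earlier results of these data known. Text names all 9 genes, up to 3 called genes per direction of each list by adjusted p, the tested genes among the 4 table neighbours on each side, and the 3 most alike genes. Alternatives covered the pseudocount, filter, normalization, replicate block, the shared library, the library labelled OA day 14 replicate 2, each replicate and the compared groups alone.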

Additional observations from a re-analysis of the deposited data

Results flagged for a closer look

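For Ccl7, a test of the difference between OB and OA in the change from day 6 to day 14 passed the threshold over 27 libraries, but not under every setting. The limma interaction was -1.77 ± 0.58 (log2, OB minus OA, adjusted p 0.0255), with 10, 18, 12 and 17 at day 6 and 6, 8 and 12 at day 14 in OB, against 7, 10 and 15 at day 6 and 32, 9 and 41 at day 14 in OA. It was -2.40 ± 0.44 (adjusted p 0.000703) without the library labelled OA day 14 replicate 2, which had the value 9. Ccl7 was not called when the compared groups were fitted alone, or without OA day 6 replicate 1, OA day 14 replicate 1 or 3, or OB day 14 replicate 1.

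Ccl7 was at 194.0 in the single ODDR library at day 9, data outside the tests, and the highest value outside day 9 was 105, in MEF. With no replicate, the difference was not tested.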

How the results depend on the processing

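Counts here are of the 8 tested genes called by limma. Outside the settings that leave out a replicate, 1972 of 2069 alternative values of single genes kept direction and side of the threshold, 30 lost the call, 67 gained it and 0 reversed; with a replicate left out it was 918, 37, 21 and 0 of 976. The fall of Cxcl1, Cxcl5 and Il1rl1 between day 1 and day 6 was called under every setting run.

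Without the library labelled OA day 14 replicate 2, counts rose for OB against ODR at days 1, 6 and 14 (1, 1 and 6), OA against ODR at day 6 (2), OB against OA at days 1, 6 and 14 (1, 1 and 4), day 6 against day 1 in ODR (6), OA (6) and OB (5), day 14 against day 6 in ODR (2), OA (4) and OB (3), BMP4 in ODR (5) and OB (4), and the interactions of OB with ODR (4) and OA (5), and fell for OA against ODR at day 14 (3 to 2). For shares of all genes, other lists, neighbours, correlations and Il6, leaving out that library was chosen after seeing the data. With the compared groups alone they were 1 for OB against ODR and for OB against OA at day 6, 0 for OA against ODR and OB against OA at day 14, 5 and 6 for day 6 against day 1 in ODR and OB, 3 and 0 for day 14 against day 6 in ODR and OA, 0 and 5 for BMP4 in ODR and OB, and 3 and 0 for the interactions with ODR and OA; fewer samples set the spread there.

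For day 14 against day 6 in OA the count of 2 became 1 with a pseudocount of 0.5, 0 without a filter, and 0 with the shared library kept under both labels or as BMP4. For BMP4 in ODR the count of 2 became 1 with quantile normalization and 0 with the shared library under both labels or as BMP4. Quantile normalization gave 1 in the interaction with ODR, and the shared library kept as ODR gave 1 for day 14 against day 6 in ODR.

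Replicate numbers did not pair the libraries: deviations of same-numbered libraries had a median correlation of 0.044 (-0.163 to 0.316, 100 pairs), against -0.02 (-0.279 to 0.215, 202 pairs). With the replicate block, counts were 1 for OB and for OA against ODR at day 6 1 for day 14 against day 6 in OA, 2 (from 3) for OA against ODR at day 14 and 4 (from 3) for day 6 against day 1 in OB.

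Leaving out 1 replicate gave 2 to 5 (OB against ODR), 1 to 3 (OA against ODR) and 1 to 4 (OB against OA) at day 14, 3 to 4 for day 6 against day 1 in OA, 0 to 4 and 2 to 3 for day 14 against day 6 in OA and OB, 0 to 1 for BMP4 in OB, 0 to 0 for BMP4 in ODR, and 0 to 1 and 0 to 5 for the interactions with ODR and OA. The single ODR library with BMP4 could not be left out. Beyond what these constructions show, the cause was not tested. Low values, unknown depth and 1 to 4 libraries per group limit what can be seen.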
